A study of Homo sapiens with 8 samples.

Results

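TXNIP, the alpha-arrestin genes ARRDC1, ARRDC2, ARRDC3 and ARRDC4, and the glucose-sensing pair MLXIP and MLX were followed in a human glioblastoma cell line deprived of glucose in the presence of AF. The 7 genes were chosen by symbol from the 13036 genes of the deposited table, all 7 were listed in it, and all 7 passed the filter on low values. RNA of LN229-TAZ(4SA) cells was sequenced in 8 libraries, 2 in each of 4 groups. Regular culture without AF, in DMEM with 10% fetal bovine serum, was sampled at 1 h and at 7 h. The treated cells were held without glucose with AF at 1 µM and sampled at 1 h and at 7 h. AF appears in the labels only as this abbreviation, and the series title concerns inhibition of thioredoxin reductase 1 in glucose-starved cells. The treated cells met AF and glucose loss at the same time, so the effects of AF and of glucose loss cannot be told apart. All groups, regular and treated, are of 1 line, LN229-TAZ(4SA). Its name refers to a 4SA form of TAZ, a transcriptional co-activator controlled by the Hippo pathway, and is shared by all 8 libraries.

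TXNIP binds thioredoxin and blocks its reducing activity, and it restrains glucose uptake by promoting the internalization of glucose transporters. It belongs to the alpha-arrestins, adaptor proteins that link membrane proteins to ubiquitin ligases of the NEDD4 type through PPXY motifs. MLXIP encodes MondoA, a transcription factor that pairs with MLX, responds to glucose 6-phosphate and activates TXNIP and ARRDC4. TXNIP RNA is therefore widely used as a readout of glucose sensing by these factors.

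The bases before the RefSeq start sites of TXNIP, ARRDC4 and ARRDC3 are shown because MondoA and MLX are known to act through paired E-box-like elements, and because these genes went different ways. All 7 genes matched the RefSeq table (GRCh38.p14), in windows of 250 bases before the start, and bases within annotated exons were left out of what is printed. Capitals mark a pair of CACGNG boxes 5 bases apart (a carbohydrate response element-like pair), the E-box CACGTG, the FOXO core GTAAACA and the CCAAT box, each on either strand, so that ATTGG is CCAAT and TGTTTAC is GTAAACA read on the other strand. The TXNIP sequence is chr1:145996601-145996829 on the minus strand, that of ARRDC4 is chr15:97960453-97960697 on the plus strand, and that of the second ARRDC3 start is chr5:91380098-91380347 on the minus strand.
TXNIP: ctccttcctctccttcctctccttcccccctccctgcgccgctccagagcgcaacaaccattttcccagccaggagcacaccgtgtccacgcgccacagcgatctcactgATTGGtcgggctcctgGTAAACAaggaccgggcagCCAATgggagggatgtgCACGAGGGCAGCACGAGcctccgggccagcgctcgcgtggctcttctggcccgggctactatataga
ARRDC4: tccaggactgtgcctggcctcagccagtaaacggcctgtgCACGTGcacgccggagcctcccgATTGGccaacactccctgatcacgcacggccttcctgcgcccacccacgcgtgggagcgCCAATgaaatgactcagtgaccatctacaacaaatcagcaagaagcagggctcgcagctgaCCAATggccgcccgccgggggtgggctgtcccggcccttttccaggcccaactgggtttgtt
ARRDC3: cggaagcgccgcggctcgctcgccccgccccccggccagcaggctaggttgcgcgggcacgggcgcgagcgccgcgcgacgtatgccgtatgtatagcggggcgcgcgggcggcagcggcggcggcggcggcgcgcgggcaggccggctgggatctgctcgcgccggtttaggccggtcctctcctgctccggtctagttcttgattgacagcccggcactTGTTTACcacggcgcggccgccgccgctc
TXNIP was the one gene of the 7 with the pair, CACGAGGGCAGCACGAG, which lay 88 to 72 bases before its start. This pair was found in 16 of 35116 windows (0.0456%). The TXNIP window also held GTAAACA 124 to 118 bases before the start, a core found in 2.98% of windows, and CCAAT boxes, found in 32% of windows. ARRDC4 held a CACGTG box 210 to 205 bases before its start and MLX one 50 to 45 bases before its start, against 6.34% of windows. In the second ARRDC3 window the FOXO core lay on the reverse strand, 29 to 23 bases before the start. The first ARRDC3 window, chr5:91383318-91383567, held a CCAAT box and no FOXO core. TXNIP also had a second start, whose window held none of the motifs searched. The AP-1 site TGANTCA (6.57% of windows) was found in ARRDC2 and ARRDC4, and the antioxidant core TGACNNNGC (10.9%) in ARRDC2. No match to GAANNTTC, a heat shock element (5.78%), or to TGATGNAA, a CHOP-ATF core (3.14%), was found in the windows of the 7 genes. CACGTG is itself one form of CACGNG, so these searches overlap. A match describes letters in the window and not a bound site. The pair was searched in this spelling and spacing only, so its share of windows holds for that form. A window without a match was not searched for other forms of the element.

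The libraries held 27731776 to 45811965 reads in listed genes, and a single read counted for 0.0209 to 0.0430 CPM (reads scaled to a common library size). The lowest counts were 57 to 183 reads for ARRDC4, and TXNIP had 123 to 2717 reads per library. The letters A and B name the libraries of each group and give no order. Whether they came from separate cultures is not stated in the labels, so the p-values speak only to the spread among these 8 libraries, possibly a technical one. Of 9 markers of glial lines 8 were listed, with summed levels of 5039 to 6405 CPM over the 8 libraries. VIM, NES and CD44 made up most of the sum, and GFAP, the astrocyte marker, was low at group means of 0.495 to 1.14 CPM. Of 10 markers of other cell types the neuronal genes RBFOX3 and SYP were listed. The immune, endothelial, epithelial and erythroid ones were not listed under their symbols. The sum of RBFOX3 and SYP was 1.28 to 2.33 CPM in 3 groups. It was 26.4 to 29.8 CPM in treated cells at 7 h, where RBFOX3 alone reached a mean of 26.9. Glial markers of lower level moved at 7 h: SOX2 had a mean of 124.8 CPM in regular and 20.9 in treated cells, S100B 93.8 and 180.4, and OLIG2 6.83 and 16.2. The part of these markers in the results at 7 h was not tested.

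TXNIP (chromosome 1, 145992435 to 145996600, minus strand, GRCh38) had the widest range of the 7 on the log2 scale. At 1 h the level was 23.0 and 24.1 CPM in the regular libraries and 18.5 and 16.5 in the treated ones. At 7 h it was 56.7 and 57.1 CPM in the regular libraries and 5.29 and 4.98 in the treated ones. The 4 groups did not overlap, and the order ran from treated cells at 7 h, through treated and regular cells at 1 h, to regular culture at 7 h. TXNIP rose in regular culture with time and fell in treated cells over the same hours. At 1 h treated cells were lower by a modest step (log2 fold change -0.43, SE 0.07; limma adjusted p = 5.51e-05). At 7 h TXNIP was 11.0-fold lower in treated cells (log2 fold change -3.46, SE 0.07; limma adjusted p = 2.37e-19). That is rank 3 from the lowest of 13028 genes tested, against rank 923 from the lowest at 1 h. The treatment effect at 7 h exceeded that at 1 h by -3.03 log2 units (95% interval -3.23 to -2.82; limma adjusted p = 1.06e-15). In bulk RNA, fewer cells with the transcript and less of it per cell cannot be told apart.

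TXNIP also changed with time within each condition. In regular culture TXNIP rose 2.41-fold from 1 h to 7 h (log2 fold change 1.27, SE 0.07; limma adjusted p = 7.65e-12), rank 87 from the highest. In treated cells it fell 3.38-fold between the same times (log2 fold change -1.76, SE 0.07; limma adjusted p = 1.49e-14). Regular culture at 7 h is the control of the 7 h comparison, so both comparisons share its libraries. Against regular culture at 1 h, the mean level of treated cells at 7 h was 5.14 ± 0.222 CPM beside 23.6 ± 0.755 (SD, n = 2 each), a pair for which no contrast was fitted.

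**Figure D1:**
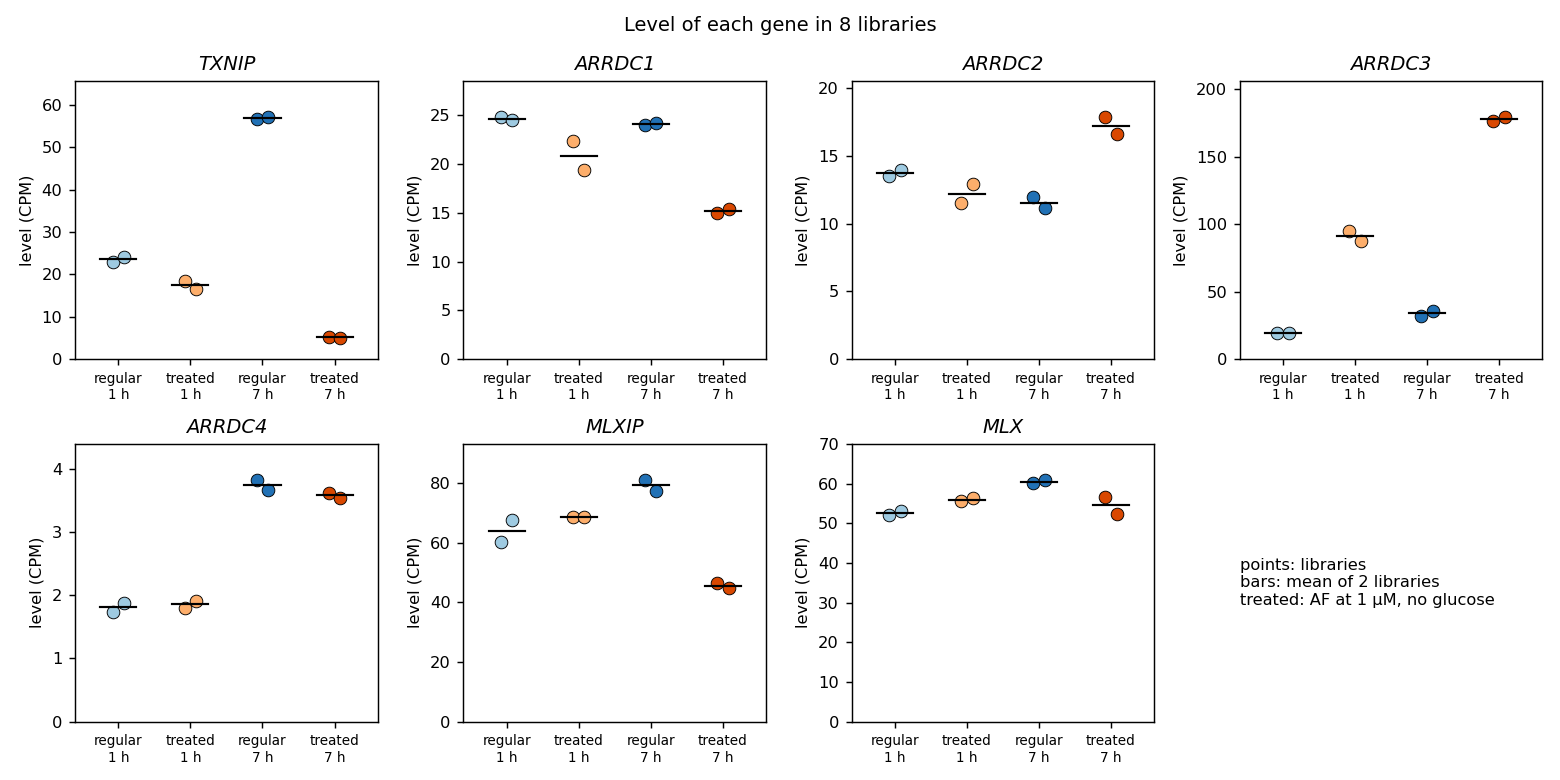
Level of each of the 7 genes in CPM (vertical axes from 0, a separate scale for each gene) in the 4 groups. Points are libraries and bars are means of 2 libraries. TXNIP in treated cells at 7 h lies at 4.98 and 5.29 CPM under every other library, while ARRDC3 in the same libraries is at 176.7 and 179.1, above every other.

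ARRDC3 (chromosome 5, 91368724 to 91383359, minus strand), an adaptor described for integrin beta 4, went the other way. At 1 h the level was 19.2 and 19.5 CPM in the regular libraries and 94.5 and 87.3 in the treated ones. At 7 h it was 32.2 and 35.5 CPM in the regular libraries and 176.7 and 179.1 in the treated ones. Both treated groups stood above both regular groups, and no groups overlapped. ARRDC3 was 4.68-fold higher in treated cells at 1 h (log2 fold change 2.23, SE 0.05; limma adjusted p = 1.03e-17), rank 30 from the highest of all genes. At 7 h it was 5.26-fold higher (log2 fold change 2.39, SE 0.05; limma adjusted p = 4.61e-19), rank 248 from the highest. The 2 effects differed by 0.17 log2 units (95% interval 0.018 to 0.32; limma adjusted p = 0.0412). Total scaling, in which each library is scaled to its summed reads of listed genes, turned that difference to -0.22. It was called there, in the opposite direction (limma adjusted p = 0.011). With quantile normalization the difference was -0.034 and missed the threshold. It also missed the threshold without either regular library of 1 h (0.18 without A, 0.16 without B), without treated library B of 1 h (0.11), without regular library A of 7 h (0.098) and without either treated library of 7 h (0.18 without A, 0.16 without B). ARRDC3 rose with time in both conditions, by 0.80 log2 units in regular culture and by 0.97 in treated cells (SE 0.05 each; limma adjusted p = 6.12e-11 and 9.81e-13). ARRDC3-AS1, an antisense gene that overlaps it, was not listed under this symbol, and the library kit does not mark strand.

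Of the 7 genes, 1 was higher and 2 were lower in treated cells at 1 h, against 38.4% of all tested genes called in either direction. At 7 h, 2 were higher and 4 lower, against 81.6% of all genes, so a call at 7 h was common. Under the difference between the times 2 were higher and 4 lower, against 73.7% of all genes. From 1 h to 7 h, 5 rose and 1 fell in regular culture (61.5% of all genes called), and 3 rose and 3 fell in treated cells (77.6% called). The comparisons share libraries and are not independent of each other.

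**Figure D2:**
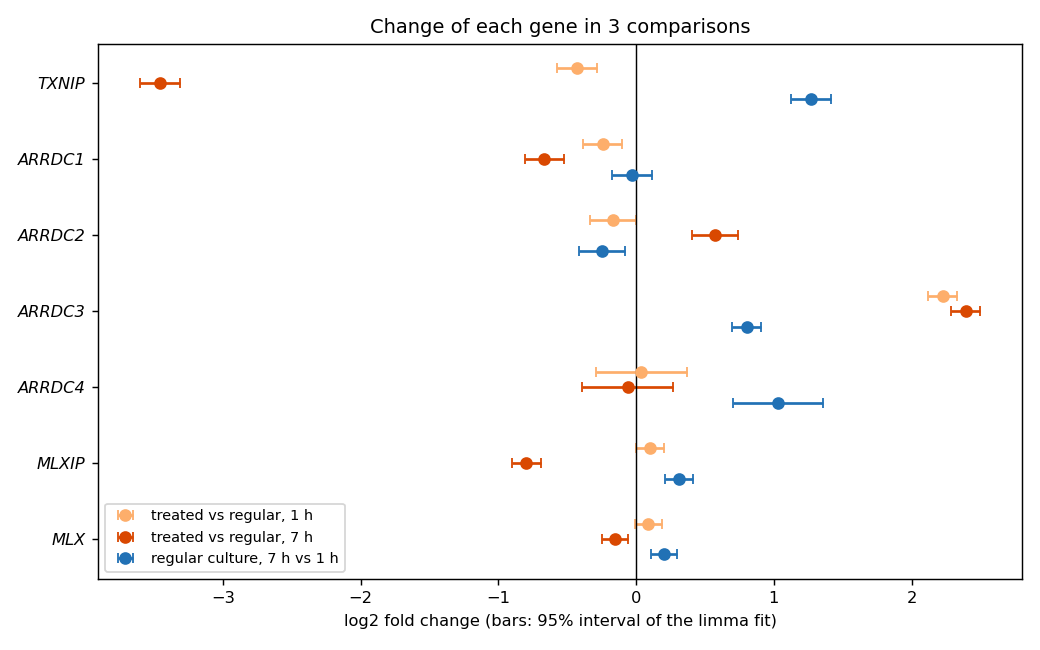
Log2 fold change (horizontal axis) of each gene for treated against regular cells at 1 h and 7 h, and for regular culture at 7 h against 1 h. Bars are 95% intervals of the limma fit. TXNIP at 7 h (-3.46) and ARRDC3 at both times (2.23 and 2.39) lie apart from the other genes, and the intervals of ARRDC4 under treatment span 0.

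ARRDC4 (chromosome 15, 97960698 to 97973838, plus strand), which like TXNIP limits glucose uptake and is described as a target of MondoA, did not follow TXNIP under treatment. At 1 h the level was 1.73 and 1.88 CPM in the regular libraries and 1.80 and 1.91 in the treated ones, and the groups overlapped. At 7 h it was 3.82 and 3.66 CPM in the regular libraries and 3.61 and 3.54 in the treated ones, so that all 7 h libraries stood above all 1 h libraries. Neither treatment difference passed: 0.038 at 1 h (95% interval -0.29 to 0.37; limma adjusted p = 0.878) and -0.063 at 7 h (95% interval -0.39 to 0.27; limma adjusted p = 0.716). The interval at 7 h thus reaches down to -0.39, which is far from the -3.46 of TXNIP. The direction at 1 h turned to -0.019 without regular library A and to -0.0011 without treated library B. With total scaling the 7 h difference was -0.38 and was called, while the median of all genes moved by -0.31 with the same scaling. ARRDC4 rose with time in both conditions, by 1.03 log2 units in regular culture and by 0.93 in treated cells (SE 0.16 each; limma adjusted p = 1.36e-05 and 2.41e-05). In regular culture TXNIP and ARRDC4 rose together, and in treated cells ARRDC4 rose while TXNIP fell.

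ARRDC1 (chromosome 9, 137605654 to 137615360, plus strand), which recruits TSG101 to bud vesicles from the plasma membrane, fell at both times. ARRDC1 stood at 24.8 and 24.5 CPM in the regular libraries of 1 h and at 22.4 and 19.4 in the treated ones. The 7 h libraries had 24.1 and 24.2 CPM (regular) and 15.0 and 15.4 CPM (treated). The regular libraries of both times lay close together, and all treated libraries were below them. The log2 fold change was -0.24 at 1 h (SE 0.07; limma adjusted p = 0.00804) and -0.67 at 7 h (SE 0.07; limma adjusted p = 2.55e-08), and the 2 effects differed by -0.42 (limma adjusted p = 0.000614). Without treated library B the 1 h difference was -0.14 and missed the threshold (adjusted p = 0.18). The antisense gene ARRDC1-AS1 overlaps ARRDC1, and without strand their reads cannot be told apart. ARRDC1-AS1 had 14.6 ± 0.212 CPM (regular) and 14.6 ± 0.795 CPM (treated) at 1 h, then 13.1 ± 0.334 CPM (regular) and 9.81 ± 0.664 CPM (treated) at 7 h (SD, n = 2 each).

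ARRDC2 (chromosome 19, 18001132 to 18014102, plus strand), another adaptor of the family, was the second alpha-arrestin above its control at 7 h. ARRDC2 stood at 13.5 and 14.0 CPM in the regular libraries of 1 h and at 11.5 and 12.9 in the treated ones. The 7 h libraries had 11.9 and 11.2 CPM (regular) and 17.9 and 16.6 CPM (treated). Treated cells at 7 h were the highest group, and treated cells at 1 h overlapped regular culture at 7 h. At 7 h ARRDC2 rose by 0.57 log2 units (SE 0.08; limma adjusted p = 2.00e-06). The 1 h difference of -0.17 (SE 0.08) did not pass (limma adjusted p = 0.105), but it was -0.22 and called under quantile normalization. The 2 effects differed by 0.74 log2 units (limma adjusted p = 8.06e-06). In regular culture ARRDC2 fell by 0.25 log2 units with time (limma adjusted p = 0.0115), a call lost without regular library B of 1 h (-0.22) or regular library B of 7 h (-0.20). In treated cells it rose by 0.50 log2 units (limma adjusted p = 1.48e-05), which became 0.12 and was not called with total scaling.

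MLXIP (chromosome 12, 122078722 to 122147347, plus strand), the gene of MondoA, was lower in treated cells at 7 h. MLXIP stood at 60.4 and 67.5 CPM in the regular libraries of 1 h and at 68.5 and 68.6 in the treated ones. The 7 h libraries had 81.1 and 77.5 CPM (regular) and 46.4 and 44.7 CPM (treated). Treated cells at 7 h were the lowest group and regular culture at 7 h the highest, as for TXNIP. At 7 h MLXIP fell by 0.80 log2 units, a 1.74-fold difference (SE 0.05; limma adjusted p = 1.12e-11). The 1 h difference was 0.10 (SE 0.05; limma adjusted p = 0.112). It was called under quantile normalization (0.16), with total scaling (0.17) and without regular library B (0.18). The 2 effects differed by -0.90 log2 units (limma adjusted p = 6.55e-10). With time MLXIP rose by 0.31 log2 units in regular culture and fell by 0.59 in treated cells (SE 0.05 each; limma adjusted p = 2.15e-05 and 1.58e-09).

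MLX (chromosome 17, 42567068 to 42573239, plus strand), the partner of MondoA, moved least of the genes called at 7 h. MLX stood at 52.1 and 53.1 CPM in the regular libraries of 1 h and at 55.7 and 56.3 in the treated ones. The 7 h libraries had 60.1 and 60.9 CPM (regular) and 56.7 and 52.3 CPM (treated). The treated 7 h libraries overlapped both 1 h groups, and the regular 7 h libraries were the highest. The log2 fold change was 0.089 at 1 h (SE 0.05; limma adjusted p = 0.132) and -0.15 at 7 h (SE 0.05; limma adjusted p = 0.00489). The 1 h difference was called under quantile normalization (0.14) and with total scaling (0.16). The 7 h call was lost without treated library B (-0.094). With time MLX rose by 0.20 log2 units in regular culture (limma adjusted p = 0.000806). In treated cells it differed by -0.040 (95% interval -0.13 to 0.055; limma adjusted p = 0.432), which was -0.41 and called with total scaling and 0.018 without treated library B of 7 h. MLX overlaps PSMC3IP, whose 7 h level was 17.4 ± 0.257 CPM (regular) and 19.4 ± 0.463 CPM (treated; SD, n = 2 each).

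Levels of different genes were compared as mean CPM per kilobase of exon. In regular culture at 7 h MLX was highest with 23.4 CPM per kilobase. TXNIP followed with 17.7, ARRDC1 with 15.2, MLXIP with 8.41, ARRDC3 with 8.08, ARRDC2 with 3.92 and ARRDC4 with 0.919. In treated cells at 7 h ARRDC3 was highest with 42.5 CPM per kilobase, followed by MLX with 21.04 and ARRDC1 with 9.56. ARRDC2 was then at 5.85, MLXIP at 4.84, TXNIP at 1.60 and ARRDC4 at 0.879. TXNIP thus lay next to the highest of the 7 in one group and next to the lowest in the other, and ARRDC3 went from below MLXIP to the top. At 1 h the level of TXNIP was 7.34 CPM per kilobase in regular and 5.44 in treated cells, and that of ARRDC3 was 4.62 and 21.7.

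The scaling between libraries matters for small differences at 7 h. With total scaling the median of all genes moved by -0.31 log2 units at 7 h, and the share of higher among called genes went from 49.7% to 29.3%. At 1 h that share was 46.1% on the deposited scale, 57.8% with quantile normalization and 68.4% with total scaling. For the change with time in treated cells it went from 47.5% to 20.8% under the total, and for the difference between times from 49.8% to 24.9%. TXNIP at 7 h was -3.46, -3.41 and -3.77 under the deposited scale, quantile normalization and the total, and ARRDC3 was 2.39, 2.29 and 2.08. MLXIP was -0.80, -0.75 and -1.11 in the same order, and ARRDC1 -0.67, -0.57 and -0.98.

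**Figure D3:**
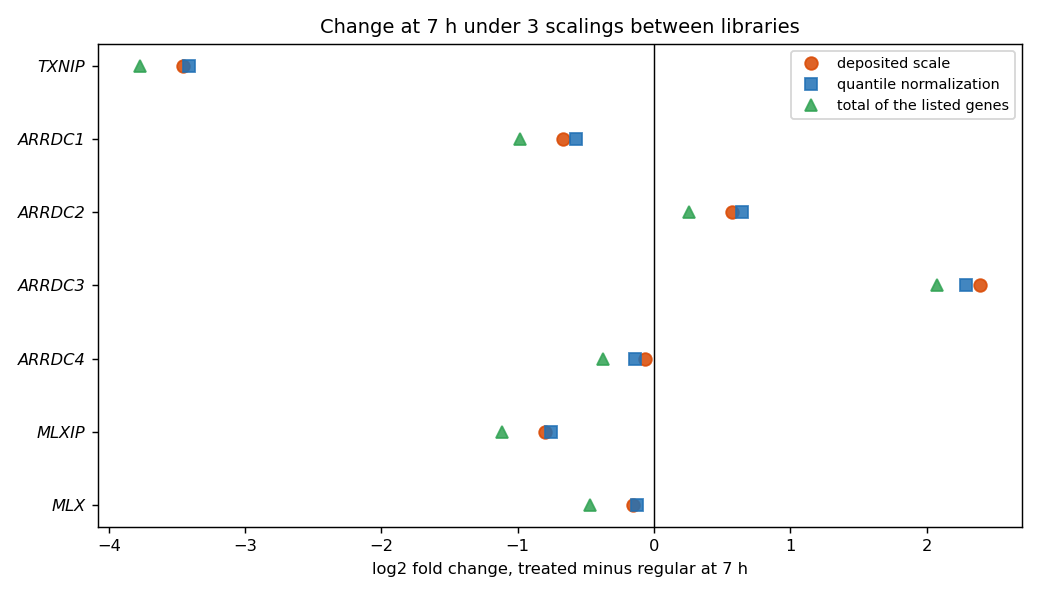
Log2 fold change of each gene in treated against regular cells at 7 h (horizontal axis) on the deposited scale, after quantile normalization and after total scaling. Each gene kept its side of 0, and the total shifted all 7 toward lower values (TXNIP from -3.46 to -3.77).

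The network around MLX, which pairs Mondo, MAX, MXD and MYC proteins on E-boxes, held genes with larger changes than MLXIP and MLX, among them MXD1, MYCN and MYC. Of its 13 genes 11 were tested. At 1 h 5 rose and 2 fell (8 and 2 with quantile normalization or with total scaling), with a median log2 fold change of 0.10 beside 0.0072 over all genes. For this and the following lists, the shares of all tested genes on the deposited scale were 17.7% called higher and 20.7% lower at 1 h. At 7 h they were 40.5% higher and 41.1% lower. With total scaling 3937 of 13028 genes were called higher and 1823 lower at 1 h, and 3144 and 7581 at 7 h. With quantile normalization the counts were 3087 and 2250 at 1 h, and 5097 and 5471 at 7 h. List counts under these scalings belong beside these counts and not beside the shares. Rose and fell in the lists mean higher and lower in treated than in regular cells of the same time. At 7 h 7 rose and 3 fell, with a median of 0.48 beside -0.0070, and with total scaling 6 rose and 4 fell. MXD1, a repressor that competes with MYC for MAX, rose by 2.51 log2 units at 1 h and by 5.15 at 7 h, where it went from 5.41 ± 0.182 to 193.3 ± 5.56 CPM (SD, n = 2 each). MYCN rose by 2.77 and 1.95, and MXI1, a further repressor, by 0.61 and 1.47. MYC fell by 1.48 log2 units at 1 h but rose by 2.19 at 7 h. In regular culture MYC was at 168.8 ± 5.02 CPM at 1 h and 30.1 ± 1.93 at 7 h, while treated cells had 60.6 ± 0.945 and 137 ± 2.99. MNT, which can pair with MLX, was lower in treated than in regular cells at 1 h (-0.48) and higher at 7 h (0.48). From 1 h to 7 h MNT fell in both conditions, with log2 fold changes of -2.04 in regular culture and -1.08 in treated cells. MXD3 was at -0.0005 at 1 h and fell by 1.60 at 7 h.

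Other genes described as targets of MondoA or of its relative ChREBP went in both directions at 7 h. The list has 12 genes, including TXNIP and ARRDC4, and 10 were tested. At 1 h 3 rose and 5 fell (median -0.17), and at 7 h 6 rose and 2 fell (median 0.13). With total scaling the 7 h split was 3 rising and 6 falling, so the direction of the smaller changes depends on the scaling. KLF10, a transcription factor, fell by 1.26 log2 units at 1 h and rose by 1.47 at 7 h. Between these times its mean went from 489.5 to 66.0 CPM in regular culture and from 204.1 to 183.6 in treated cells. PFKFB3, which makes the activator of phosphofructokinase, fell by 0.42 and rose by 0.78. Its mean went from 321.3 to 120.3 CPM in regular culture and from 240.8 to 206.6 in treated cells. TKT, a transketolase of the pentose phosphate pathway, rose by 0.25 and 0.85. Each of these kept its direction under both other scalings. LDHA, lactate dehydrogenase A, was the one called gene beside TXNIP that fell at 7 h on the deposited scale (-0.19). ACACA, at 0.866 to 3.15 CPM in group means, was called at 1 h (-1.17), but not without regular library A (-0.32), treated A (-1.03) or treated B (-1.30).

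The genes that hold the same pair of boxes as TXNIP were read out as a description, a set formed after the values were known. The pair was in the windows of 16 genes, of which 14 were listed. At 7 h TXNIP had the lowest log2 fold change of the 14. GFPT1, the rate-limiting enzyme of the hexosamine pathway, was at 1.51, P4HA1, a collagen prolyl hydroxylase subunit, at 1.31, MTHFS, a folate enzyme, at 0.73 and KCTD5 at 0.62. PNLDC1 had a mean of 0.0313 CPM in regular culture at 7 h, under the level of 3 reads, and of 19.0 CPM in treated cells. The second lowest was TIGD1 at -0.45, and RAN, a nuclear transport GTPase, was at -0.10. Genes with the pair thus stood on both sides of 0.

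On the thioredoxin side, 12 of 13 listed partners and regulators of TXNIP were tested. At 1 h 2 rose and 4 fell (median 0.0032), which became 4 and 1 with quantile normalization and 3 and 0 with total scaling. At 7 h 6 rose and 3 fell (median 0.11), or 3 and 8 with total scaling. TXN, the thioredoxin that TXNIP binds, was at 142.8 ± 2.45 and 144.2 ± 5.07 CPM at 1 h, and went from 170.7 ± 4.64 to 364 ± 1.81 CPM at 7 h (log2 fold change 1.09). TXNRD1, the reductase that recharges thioredoxin, rose by 2.82 log2 units at 7 h. At 7 h the mean TXN level was thus above its control while the mean TXNIP level was below it. DDIT4, a stress protein described as a TXNIP partner, rose by 4.51 log2 units at 1 h and 2.72 at 7 h. MAP3K5, the kinase ASK1 that thioredoxin holds inactive, fell by 0.77 at 7 h, and TXNRD2, the mitochondrial reductase, fell by 0.46. PRKAA1, a catalytic subunit of AMPK, which phosphorylates TXNIP, fell by 0.40 at 7 h. At 1 h the falls of MAP3K5 (-0.16), PRKAA1 (-0.14) and ATG4B (-0.14) were small. The MAP3K5 call was lost without any one of the 4 libraries (-0.17 to -0.16), and the other calls without regular library A (-0.084 for PRKAA1 and -0.12 for ATG4B) or treated library B (-0.13 and -0.11). PRKAA1 was also lost without treated library A (-0.16).

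The NEDD4-type ligases that bind the PPXY motifs of alpha-arrestins changed in both directions. All 9 were tested; at 1 h 2 rose and 5 fell (median -0.13; 1 and 4 with quantile normalization, 2 and 4 with total scaling), and at 7 h 6 rose and 3 fell (median 0.20), or 3 and 4 with total scaling. NEDD4 fell by 0.97 log2 units at 1 h and 0.45 at 7 h, and SMURF2 by 0.87 and 0.73. NEDD4L fell by 0.61 at 1 h and rose by 1.08 at 7 h, and SMURF1 fell by 0.30 and rose by 0.83. WWP2 rose by 0.38 at 1 h and fell by 0.24 at 7 h. HECW1, at 1.05 ± 0.202 CPM in regular culture, rose by 2.13 at 7 h. ITCH, the ligase that degrades TXNIP, was at 0.16 at 7 h on the deposited scale and at -0.16 with total scaling.

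Among membrane proteins described as cargo of alpha-arrestins, 7 of 8 were tested. At 1 h 2 rose and 0 fell (median 0.038), and at 7 h 5 rose and 2 fell (median 0.83), or 4 and 3 with total scaling. SLC2A3, the neuronal-type glucose transporter GLUT3, rose by 0.92 log2 units at 1 h and by 3.08 at 7 h, from 10.5 ± 0.331 to 89.1 ± 0.332 CPM (SD, n = 2 each). SLC2A1, the transporter GLUT1 that TXNIP binds, was at 216.5 ± 1.95 and 229.5 ± 0.397 CPM at 7 h. Its difference of 0.084 became -0.094 under quantile normalization and -0.23 under the total, and the call was lost when any of the 4 libraries was left out (0.075 to 0.093). NOTCH1, a receptor, rose by 0.21 and 1.72. ITGB4, the integrin linked to ARRDC3, rose by 0.88 at 7 h. SLC11A2, an iron transporter, fell by 0.95 at 7 h and EGFR by 0.42.

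The vesicle and ESCRT partners of ARRDC1 differed by at most 0.54 log2 units between treated and regular cells at either time on the deposited scale. All 7 were tested; at 1 h 0 rose and 4 fell (median -0.11), which became 3 and 2 with quantile normalization and with total scaling. At 7 h 3 rose and 1 fell (median 0.079), or 3 and 4 with total scaling. Without regular library A, 2 of the 7 were called at 1 h. TSG101, the ESCRT protein that ARRDC1 recruits, was at 0.085 at 1 h and rose by 0.54 at 7 h. VPS4B, an ATPase of the pathway, fell by 0.30 and rose by 0.52, and PDCD6IP (ALIX) fell by 0.23 and 0.25. Of the other genes with an arrestin fold, 5 of 6 were tested. At 1 h 1 of these, the beta-arrestin ARRB2, rose on the deposited scale (0.18; 4 rose with quantile normalization and 5 with total scaling), which missed the threshold when regular library A (0.15) or treated library A (0.10) was left out. At 7 h 4 rose and 1 fell (median 0.34), or 1 and 2 with total scaling. VPS26A, a retromer subunit, rose by 0.60 and its paralog VPS26B fell by 0.36.

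FOXO factors and the glucocorticoid receptor are further regulators described for TXNIP or its relatives, and their targets were listed for comparison. Of 13 FOXO targets 12 were tested. At 1 h 5 rose and 3 fell (median 0.044). At 7 h 10 rose and 2 fell (median 0.81), against 40.5% and 41.1% of all genes. With total scaling 9 rose and 2 fell at 7 h, against 3144 and 7581 of 13028 genes. From 1 h to 7 h in regular culture, 1 of the 12 was called higher and 9 lower (median -0.43, 61.5% of all genes called). In treated cells 7 were called higher and 4 lower with time (median 0.35, 77.6% of all genes called). KLHL24 rose by 0.84 and 3.06 log2 units and PDK4, which restrains pyruvate oxidation, by 0.78 and 3.04. SESN3, a sestrin, rose by 0.56 and 2.12. BCL6 fell by 1.08 at 1 h, IRS2 by 0.30 and FBXO32 by 0.27. At 7 h the same genes were higher than in regular cells by 0.34, 0.74 and 1.71, with BCL6 at 0.027 and not called with total scaling. From 1 h to 7 h BCL6 went from 224.7 to 64.6 CPM in regular culture and from 106.5 to 81.9 in treated cells. In the same order IRS2 went from 122.8 to 49.7 CPM and from 100 to 83.0. FBXO32 went from 47.0 to 18.9 CPM and from 38.9 to 62.0. CDKN1B, the cell cycle inhibitor p27, rose by 1.19 at 1 h and fell by 1.24 at 7 h, and SESN1 fell by 1.69 at 7 h. Of 8 glucocorticoid receptor targets 7 were tested; at 1 h 2 rose and 4 fell (median -0.16), and at 7 h 6 rose and 1 fell (median 1.47), or 5 and 2 under the total. DUSP1, a MAP kinase phosphatase, rose by 0.97 and 4.93. Its mean went from 27.4 CPM at 1 h to 3.83 at 7 h in regular culture, and from 54.0 to 118.2 in treated cells. KLF9 fell by 1.04 at 7 h. SGK1 fell by 1.86 at 1 h and rose by 1.03 at 7 h, and ERRFI1 fell by 1.75 and rose by 1.47. With time ERRFI1 went from 377.8 to 49.3 CPM in regular culture and from 112.4 to 136.1 in treated cells. SGK1 went from 193.6 to 34.5 CPM and from 53.2 to 70.45 in the same order. From 1 h to 7 h the median of this list was -2.49 in regular culture and 0.40 in treated cells.

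**Figure D4:**
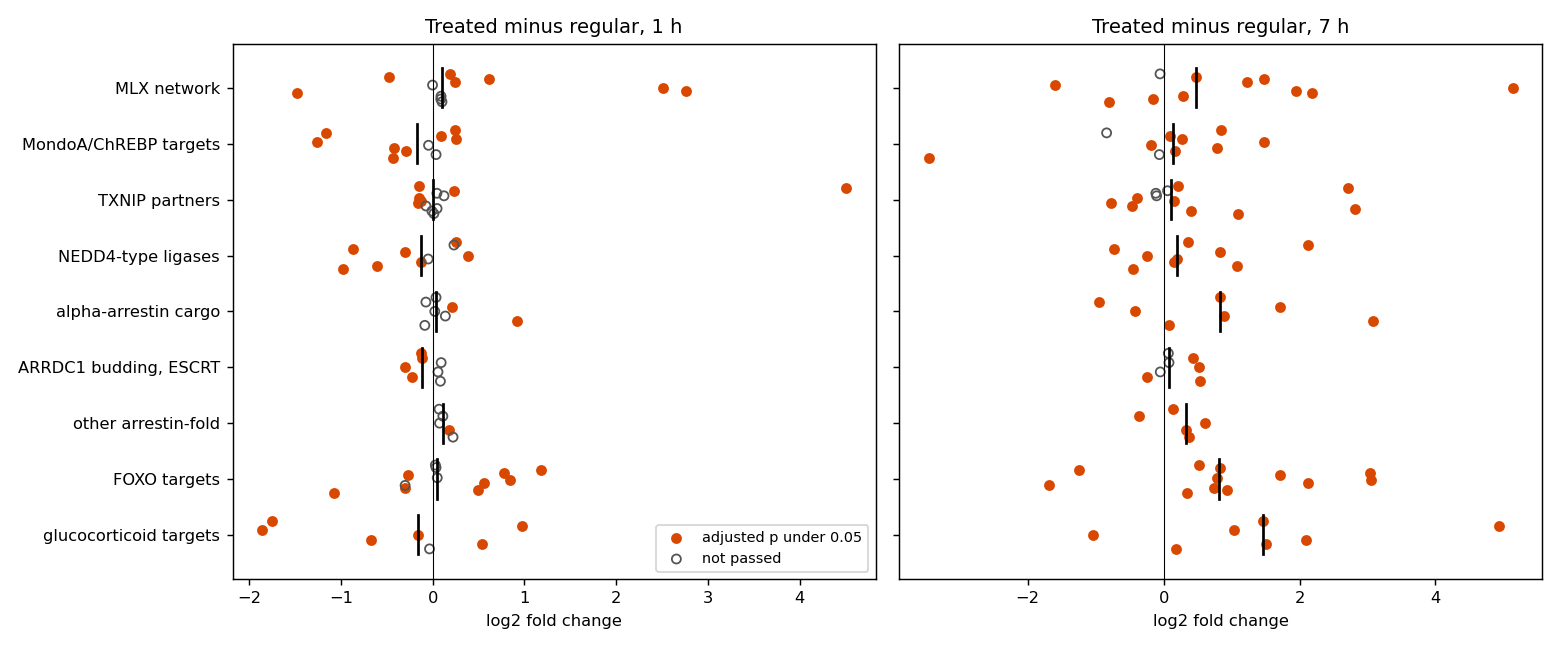
Log2 fold change in treated against regular cells at 1 h (left) and 7 h (right) for each tested gene of 9 lists, with filled points for an adjusted p under 0.05 and black bars for list medians. Points lie on both sides of 0 in most lists, and at 7 h the glucocorticoid targets (median 1.47) have the highest median, followed by the alpha-arrestin cargo (0.83) and the FOXO targets (0.81).

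Genes with a pattern most like TXNIP and ARRDC3 were taken by Pearson correlation of log2 values over the 8 libraries, among 2927 genes with at least 5 CPM in 1 group and a range of at least 1 log2 unit. The correlation is given as a description, since the 8 points form 4 groups and share their libraries. For TXNIP the 5 were DGCR8 (r = 0.9994, n = 8), a subunit of the microRNA processor, SEPHS1 (0.9993), MARS2 (0.9977), VKORC1L1 (0.9971) and BCL2L1 (0.9970). Their changes were smaller than that of TXNIP. DGCR8 went from 107.4 ± 2.76 to 29.5 ± 0.823 CPM at 7 h (log2 fold change -1.86), and SEPHS1, which is related to selenophosphate synthetase, from 88.3 ± 0.796 to 42.7 ± 0.322 CPM (SD, n = 2 each). For ARRDC3 they were LURAP1L (0.9954), ZNF10 (0.9949), ZNF844 (0.9946), ZNF473 (0.9909) and ZFP37 (0.9889). The last 4 are zinc finger genes, and the share of such genes among the 2927 was not counted. Among the 7 genes themselves, TXNIP had r = 0.9499 with MLXIP, 0.9045 with ARRDC1, 0.5684 with MLX, -0.0565 with ARRDC4, -0.7868 with ARRDC3 and -0.8774 with ARRDC2 (n = 8).

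**Figure D5:**
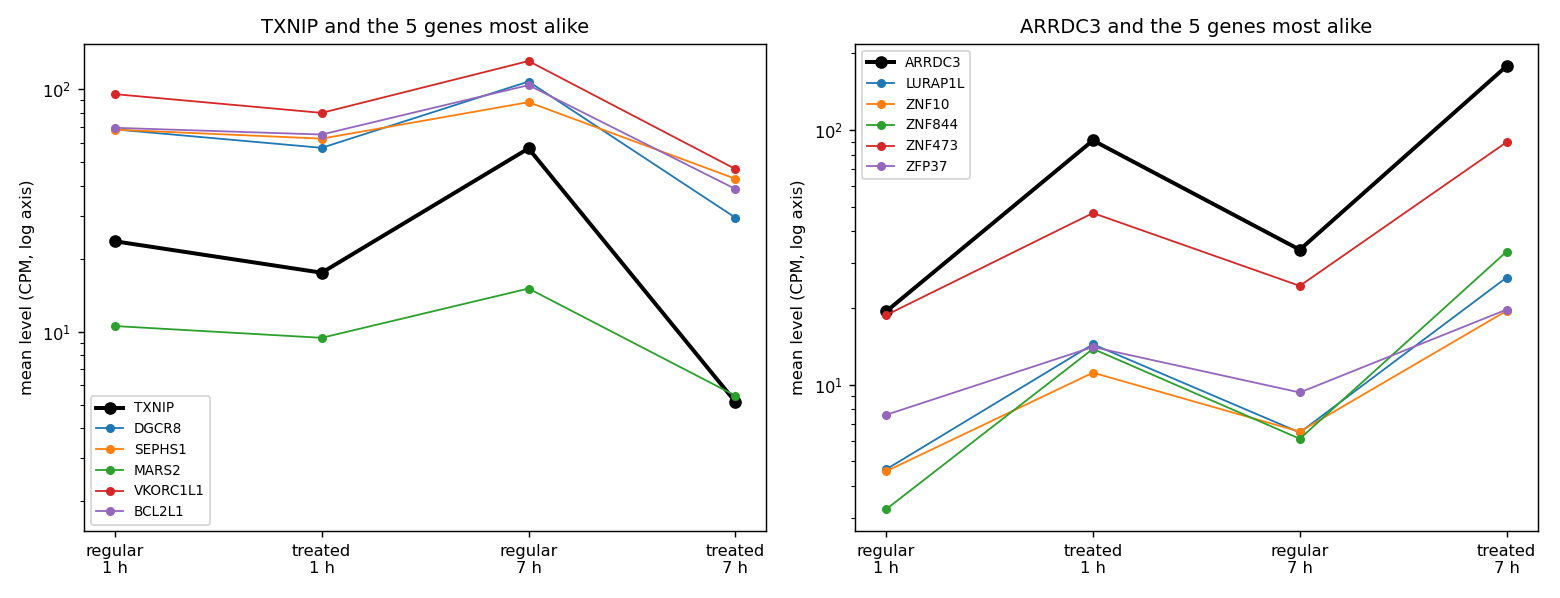
Mean level (CPM, log axis) in the 4 groups of TXNIP (left) and ARRDC3 (right), in black, with the 5 genes of highest correlation over 8 libraries. TXNIP falls further than its 5 neighbours in treated cells at 7 h, to 5.14 CPM from 56.9 in regular culture.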

How the data were processed

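Per the labels' protocols, libraries of total RNA were made with SMART-Seq mRNA HT and Nextera XT kits, which do not mark strand. HISAT2, edgeR and the GRCh38 build are named in the submitters' processing notes, without versions. How reads were counted is not stated there. The authors deposited log2 CPM values (reads scaled to a common library size), to which 0.0522 CPM, or 2 reads of an average library, had been added. Once this addition was removed, 100% of values up to 5000 reads lay within 0.1 read of a whole number, and levels are printed as CPM without it. The library sizes behind the CPM were 1.04 to 1.05 times the listed reads for the regular libraries, 1.09 times for the treated 1 h libraries and 0.838 and 0.846 times for the treated 7 h libraries, so a scaling was already applied.

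Column headings name the group only, so the libraries have no replicate numbers. A gene needed 1 CPM in 2 or more libraries, which left 13028 and removed 8. Its log2 values entered a limma 3.58.1 fit (R 4.3.3) with 1 mean per group and an intensity trend (4 residual and 14.5 prior degrees of freedom). Genes were called where the p adjusted by Benjamini-Hochberg was under 0.05. On this log2 scale the changes of genes with few reads are understated. Exon lengths and gene positions come from GENCODE on GRCh38. The procedure was tested on simulated data. Named list genes are up to 3 rising and 3 falling called genes per list and time, and any gene a small count needs; the members are named whatever their result. Some genes belong to more than 1 list. One gene of the cargo list is not reported here and was left out of its counts. The members, lists and rules were chosen with earlier results of these data known.

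Alternatives were other scalings (quantile, total of the listed genes), voom weights on the recovered reads, no trend, log2(CPM + 0.5), no filter, only the groups compared, and each library left out in turn.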

Additional observations from a re-analysis of the deposited data

Results flagged for a closer look

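For 6 of the 7 genes the effect of treatment at 7 h differed from that at 1 h in a direct test of the difference (limma, adjusted over all genes), as it did for 73.7% of all genes tested. The difference was -3.03 log2 units for TXNIP, -0.90 for MLXIP, -0.42 for ARRDC1, -0.24 for MLX, 0.74 for ARRDC2 and 0.17 for ARRDC3. TXNIP and ARRDC1 were lower at both times and further at 7 h. The small ARRDC3 difference turned to -0.034 under quantile normalization (not called) and to -0.22 with total scaling (called).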

How the results depend on the processing

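Each gene in each of 5 comparisons was refitted under the alternatives; 378 of these values kept their direction and side of the threshold, 14 lost a call, 8 gained one and 6 changed direction. The cause of these changes was not tested. Under quantile normalization ARRDC2 (-0.22), MLXIP (0.16) and MLX (0.14) were called at 1 h, ARRDC2 over time in regular culture lost its call (-0.19), ARRDC1 over time in regular culture turned to 0.017 and the ARRDC3 difference between times to -0.034. Under scaling to the total, MLXIP (0.17) and MLX (0.16) were called at 1 h, ARRDC4 at 7 h (-0.38) and MLX over time in treated cells (-0.41), ARRDC2 over time in treated cells lost its call (0.12), and the ARRDC3 difference turned to -0.22. At -0.22 the ARRDC3 difference was called under the total. It was not called under quantile normalization, with voom weights (0.17) or without a trend (0.17). With each library left out in turn it ranged from 0.098 to 0.24. The 1 h values ranged from -0.019 to 0.095 for ARRDC4 (-0.019 and -0.0011 reversed), from 0.023 to 0.18 for MLXIP and from -0.35 to -0.14 for ARRDC1. MLX ranged from -0.21 to -0.094 at 7 h and from -0.097 to 0.018 over time in treated cells, and ARRDC2 over time in regular culture from -0.30 to -0.20. TXNIP at 7 h stayed between -3.77 and -3.35 under every alternative run. Called genes over the whole table stayed within 1.5 times of the first count. List counts at 1 h that moved further were the TXNIP partners, from 6 to 3 under the total and without regular library A, treated library A or treated library B. The arrestin-fold genes went from 1 to 4 (quantile), 5 (total), 2 (voom, and only the groups compared) and 0 (no trend, regular library A or treated library A left out). The ESCRT partners went from 4 to 2 without a trend or regular library A. At 7 h the ESCRT partners went from 4 to 7 and the arrestin-fold genes from 5 to 3 under the total. No paired analysis was possible because the columns are headed by group alone, with no replicate numbers. The quasi-likelihood count test was planned only for deposited raw counts, and the deposited values are on a log2 scale. It was not run on the recovered reads, for which voom weights were used. With 2 libraries a group, small differences such as those of MLX rest on single libraries, and counts of 57 to 183 reads limit ARRDC4.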
